A study of Mus musculus with 18 samples.

Results

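The genes described are the ACTH receptor and the melanocortin accessory genes, 7 in all: Mc2r, Mrap, Mrap2, Mc5r, Mc1r, Mc4r and Pomc. They were chosen by symbol, and all 7 were found among the 45151 symbols that occur in every sample. The libraries came from wild-type male C57BL/6J mice aged 16 weeks on regular chow, with 6 samples of mature iWAT adipocytes (inguinal white fat), 6 of mature eWAT adipocytes (epididymal white fat) and 6 of BAT (brown fat). No genotype or drug separated the groups. The study sequenced them to find receptors coupled to the stimulatory G protein Gs that mouse fat cells express on their own. The white adipocytes were released with collagenase and taken from the floating layer, whereas BAT was extracted as whole tissue although a label calls it adipocytes, so depot and preparation cannot be told apart in any comparison with BAT. In such bulk samples fewer cells of a type and less RNA per cell cannot be told apart either.

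ACTH is cut from the precursor pro-opiomelanocortin, the product of Pomc, as are the melanocyte-stimulating hormones. Its receptor, the product of Mc2r, works only with a small membrane protein, the product of Mrap, which takes the receptor to the cell surface and lets it bind ACTH. The receptor then signals through Gs to adenylyl cyclase, cAMP and protein kinase A, which in fat cells leads to lipolysis. It is best known from the adrenal cortex, where it drives glucocorticoid synthesis. Mrap2 encodes a related accessory protein, known mainly as a partner of the Mc4r product in hypothalamic neurons. The products of Mc1r and Mc5r are receptors for melanocyte-stimulating hormones, known mainly from melanocytes and from exocrine glands.

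The level of a gene is given in reads, as RPKM (reads scaled to the length of the row and to the sample's total of reads) or as RPM (scaled to the total alone). The totals behind the RPKM were 22929576 to 34512470 reads a sample. For iWAT and BAT each row merges the exons of 1 gene. For eWAT each row is 1 transcript, and the most-read transcript stands for the gene. Since eWAT alone was counted by transcript, the effect of counting and that of the depot cannot be told apart unless the same bases are compared. The adipocyte markers Adipoq, Plin1, Lep, Cidec and Fabp4 summed to 10753 to 16455 RPKM in iWAT, 9091 to 16665 in eWAT and 5655 to 7026 in BAT. The brown fat markers Ucp1, Cidea, Dio2, Elovl3 and Cox8b summed to 2714 to 3389 RPKM in BAT, against at most 121.3 in iWAT and 24.5 in eWAT. The eWAT sample of mouse 15 held 1981 RPKM of macrophage markers (136.6 to 477.0 in the other 5), the eWAT samples of mice 14 and 15 held 76.1 and 70.9 RPKM of epididymis markers, and the BAT sample of mouse 12 held 1340 RPKM of skeletal muscle markers.

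The accessory genes are paralogs of which 1 was abundant and 1 was close to absent in every depot. Mrap lies on the plus strand at chr16:90738569-90750030 of mm9, with 5 merged exons of 1464 bp, and Mrap2 on the plus strand at chr9:87039140-87078880, with 6 merged exons of 2258 bp. The second coding exon of each, which codes for the membrane-spanning stretch, is shown to make plain how far the 2 genes differ at the level of reads. Both exons are 100 bases long, were read from the NCBIM37 genome (mm9) on the plus strand at chr16:90747769-90747868 and chr9:87070629-87070728, and carry in capitals the bases that are identical at the same position.
Mrap: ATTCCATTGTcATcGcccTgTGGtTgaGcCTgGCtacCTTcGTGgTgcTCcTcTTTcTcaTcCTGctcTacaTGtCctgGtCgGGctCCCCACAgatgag
Mrap2: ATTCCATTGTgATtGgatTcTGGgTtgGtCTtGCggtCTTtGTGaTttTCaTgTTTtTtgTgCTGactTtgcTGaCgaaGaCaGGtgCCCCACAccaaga
Of the 100 positions, 56 are identical, and the longest run without a difference is 10 bases.

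Mc2r was read in all 18 samples, strongly in white adipocytes and weakly in BAT. The gene lies on the minus strand at chr18:68566561-68588916 of mm9, with 3 merged exons of 3124 bp. In iWAT its RPKM was lowest in mouse 11 at 5.81, had a median of 8.26 and was highest in mouse 13 at 10.6 (465 to 803 reads). In eWAT it was lowest in mouse 15 at 11.4, had a median of 17.6 and was highest in mouse 7 at 19.5 (588 to 1036 reads). In BAT it was lowest in mouse 11 at 0.315, had a median of 0.602 and was highest in mouse 7 at 0.878 (30 to 94 reads). No BAT sample came near a white adipocyte sample, and the highest iWAT value lay below the lowest eWAT value.

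The mean RPKM of Mc2r came to 8.25 ± 1.58 (SD, n = 6) for iWAT, to 16.7 ± 3.12 (SD, n = 6) for eWAT and to 0.607 ± 0.189 (SD, n = 6) for BAT. The iWAT mean was 13.6-fold above BAT, with a log2 fold change of 3.49 (SE 0.22, adjusted p = 7.45e-09, edgeR's quasi-likelihood test with Benjamini-Hochberg adjustment). The eWAT mean was 27.5-fold above BAT per kilobase and 13.8-fold above it as RPM, with a log2 fold change of 4.04 (SE 0.23, adjusted p = 1.31e-11, the same test with the row length as an offset). Every sample of either white depot was above every BAT sample on both scales. The share of all rows whose depots lie apart in this way is not given, here or for the other genes. The 2 comparisons share the BAT samples. The folds compare plain means, whereas the log2 fold changes of the test also hold a scaling between samples (TMM), so the 2 measures need not match.

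The gap between iWAT and eWAT in Mc2r depended on the row that was counted. The merged row of 3124 bp used for iWAT and BAT differs from the transcript used for eWAT (NM_008560, 1570 bp) in its first exon, which is 48 bp long in the transcript and is widened in the merged row to the 1602 bp of a single-exon transcript (AK078581). The latter took 23 to 63 reads a sample in eWAT. Per kilobase of these rows iWAT was lower than eWAT, with a log2 fold change of -0.58 (SE 0.20, adjusted p = 0.0187, edgeR's quasi-likelihood test). Without the length in the fit it was -0.01 (SE 0.19, adjusted p = 0.978), and as RPM the iWAT mean was 25.8 ± 4.94 (SD, n = 6), against 26.2 ± 4.90 (SD, n = 6) for eWAT, with overlapping samples.

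To compare the same bases, the reads on the coding exon of Mc2r, which is 1410 bp long and occurs in both kinds of row, were worked out from the exon values in the files. This exon held 86.7% to 92.2% of the row's reads in iWAT, 93.2% to 95.7% in eWAT and 73.5% to 96.7% in BAT. Its RPKM came to 16.4 ± 3.28 (SD, n = 6) for iWAT, to 17.5 ± 3.30 (SD, n = 6) for eWAT and to 1.14 ± 0.388 (SD, n = 6) for BAT. On the coding exon the 2 white depots overlapped (11.2 to 21.2 in iWAT and 12.1 to 20.7 in eWAT), and the log2 fold change of iWAT against eWAT was -0.09 (SE 0.19, adjusted p = 0.776, edgeR's quasi-likelihood test). The difference from BAT stood at 3.51 (SE 0.22) for iWAT and 3.60 (SE 0.22) for eWAT on the log2 scale. These exon fits were chosen after the data were seen.

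**Figure D1:**
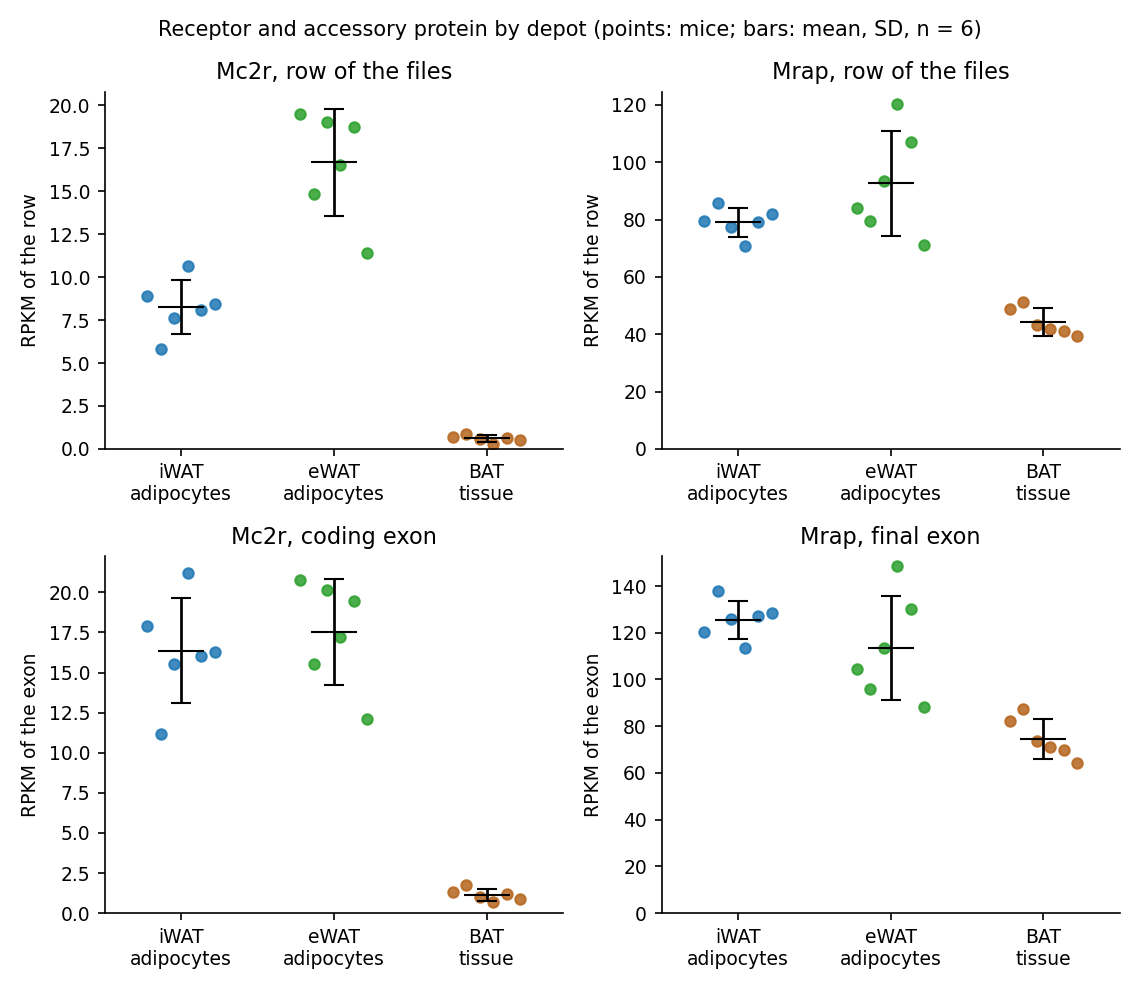
RPKM (vertical axes, linear from 0) of Mc2r (left) and Mrap (right) in iWAT adipocytes, eWAT adipocytes and BAT tissue, for the row of the files (top) and for 1 exon that both kinds of file hold (bottom). Points are mice, bars are the mean and SD of 6 samples; the iWAT and eWAT samples of Mc2r are apart per row (at most 10.6 against at least 11.4) and overlap on the coding exon, while BAT stays below both.

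Mrap was the most abundant of the 7 genes in every sample. In iWAT its RPKM ran from 70.6 in mouse 13 over a median of 79.2 to 85.7 in mouse 11 (2500 to 3676 reads). In eWAT it ran from 71.1 in mouse 15 over a median of 88.7 to 120.4 in mouse 13 (2532 to 3947 reads). In BAT it ran from 39.2 in mouse 13 over a median of 42.5 to 51.4 in mouse 7 (1695 to 2575 reads). All BAT samples were below all white adipocyte samples, and iWAT and eWAT overlapped. Without the share of all rows that lie apart in this way, the separation does not set Mrap apart from other genes.

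The mean RPKM of Mrap came to 79.0 ± 5.05 (SD, n = 6) for iWAT, to 92.6 ± 18.3 (SD, n = 6) for eWAT and to 44.3 ± 4.80 (SD, n = 6) for BAT. The plain mean of Mrap was 1.78-fold higher in iWAT than in BAT. With the scaling between samples the log2 fold change was 0.57 (SE 0.09, adjusted p = 9.09e-05, edgeR's quasi-likelihood test with Benjamini-Hochberg adjustment). The plain mean was 2.09-fold higher in eWAT than in BAT per kilobase and 1.55-fold as RPM. On log2(RPKM + 0.1) the median of all rows was itself higher in eWAT than in BAT, by 0.71. With the scaling between samples the log2 fold change of Mrap was 0.33 (SE 0.12, adjusted p = 0.0208, the same test). The last call was lost without eWAT mouse 13 or 14 or without BAT mouse 11, 12 or 13 (log2 fold change 0.25 to 0.29, adjusted p from 0.0564 to 0.0687). In the final exon of Mrap, 555 bp long and present in both kinds of row, the RPKM came to 125.5 ± 8.17 (SD, n = 6) for iWAT, to 113.5 ± 22.4 (SD, n = 6) for eWAT and to 74.7 ± 8.52 (SD, n = 6) for BAT.

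Between iWAT and eWAT Mrap gave no call, and its direction turned with the scaling: the log2 fold change was 0.21 (SE 0.12, adjusted p = 0.166) in edgeR and -0.21 (adjusted p = 0.126) in limma on log2(RPKM + 0.1). On that RPKM scale the median of all rows itself lay at -0.34 for iWAT against eWAT, at 0.71 for eWAT against BAT and at 0.24 for iWAT against BAT, whereas it lay between 0.01 and 0.08 in edgeR. The eWAT transcript with the most Mrap reads, ENSMUST00000125429 with 18542 reads over 6 samples, was nearly level with NM_029844, which had 18401. The choice between them hardly touches the reads.

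Of the 7 genes, Mc2r, Mrap and Mc5r passed the filter of at least 10 reads in at least 6 samples in the comparison of iWAT with BAT, where 67.6% of the 19733 rows tested were called, 34.0% higher and 33.6% lower in iWAT. In both comparisons with eWAT, Pomc passed as well. There, of 18383 rows, 73.9% were called for eWAT against BAT (39.9% higher and 34.0% lower in eWAT), and 52.5% for iWAT against eWAT (24.2% higher and 28.3% lower in iWAT). Without the row length in the fit, 70.3% were called for eWAT against BAT (35.6% higher, 34.7% lower) and 25.6% for iWAT against eWAT (13.4% higher, 12.3% lower). With backgrounds of this size, a call by itself sets a gene little apart from the rest. Pomc passed only with the help of the eWAT samples, and Mc5r only through iWAT and BAT samples. The filter therefore leaned towards a difference in the comparisons with eWAT, and their calls there are given as values only. Mrap2, Mc1r and Mc4r did not pass in any comparison.

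**Figure D2:**
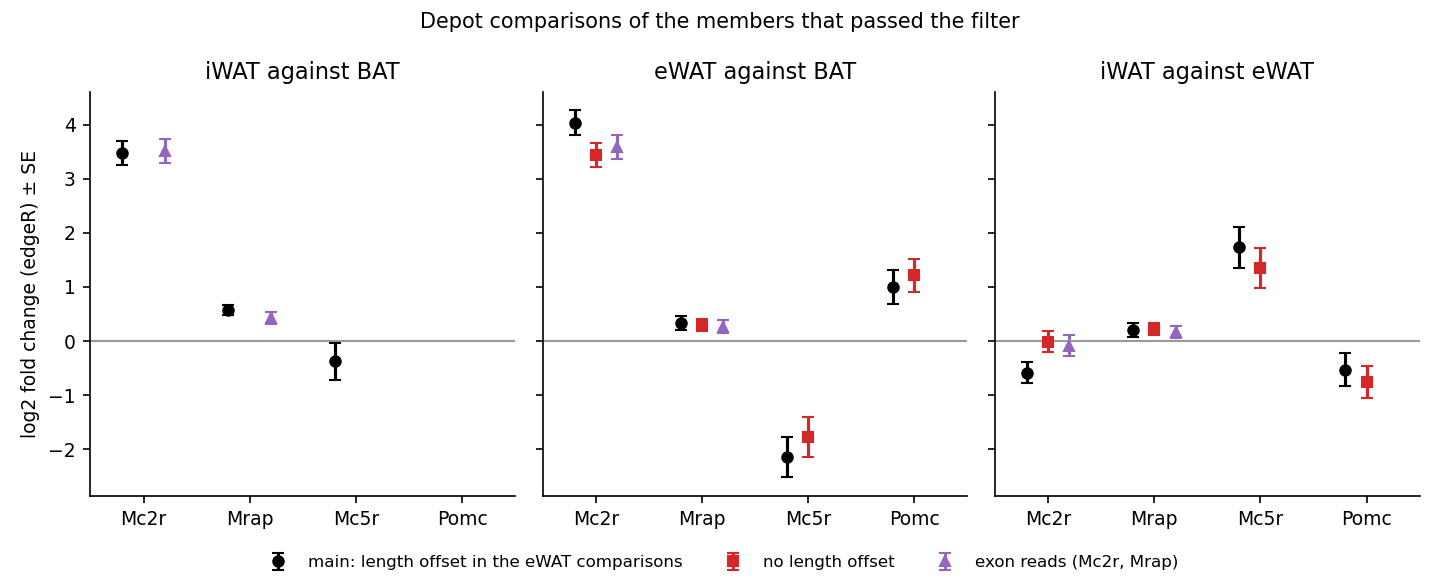
Log2 fold change from edgeR with its SE (vertical axis) of Mc2r, Mrap, Mc5r and Pomc in iWAT against BAT (12 samples in the main fit), eWAT against BAT and iWAT against eWAT (18 samples). Black circles are the main fits, red squares leave out the row length and purple triangles count 1 shared exon of Mc2r and Mrap; Mc2r lies between 3.44 and 4.04 against BAT in the fits shown and moves from -0.58 to about 0 between iWAT and eWAT.

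Receptor and accessory protein did not differ between depots by the same factor. The RPKM of Mrap divided by that of Mc2r was 9.98 ± 2.65 (SD, n = 6) in iWAT, from 6.64 in mouse 13 to 14.7 in mouse 11. In eWAT it was 5.63 ± 1.04 (SD, n = 6), from 4.32 in mouse 7 to 7.29 in mouse 13. In BAT it was 79.1 ± 26.9 (SD, n = 6), from 58.5 in mouse 7 to 132.4 in mouse 11. BAT did not overlap with either white depot, and Mrap exceeded Mc2r in all 18 samples.

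This ratio does not depend on the sample's total of reads. Its geometric mean was 7.84-fold lower in iWAT than in BAT (log2 difference -2.97) and 13.7-fold lower in eWAT than in BAT (-3.78), each with p = 0.00216 in a two-sided exact permutation test, the smallest p that 6 against 6 samples allow, and adjusted p = 0.00325 over 3 comparisons. Counted on the shared exons, the ratio was still 8.75-fold and 10.5-fold lower in iWAT and eWAT than in BAT. Between iWAT and eWAT the ratio of RPKM was 1.75-fold higher in iWAT (log2 difference 0.81, exact permutation p = 0.00433). On reads without length it was 1.18-fold higher (exact permutation p = 0.221) and on the shared exons 1.20-fold higher (exact permutation p = 0.203), with overlapping samples. The iWAT and eWAT difference per row therefore holds only with the row lengths of the 2 kinds of file.

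**Figure D3:**
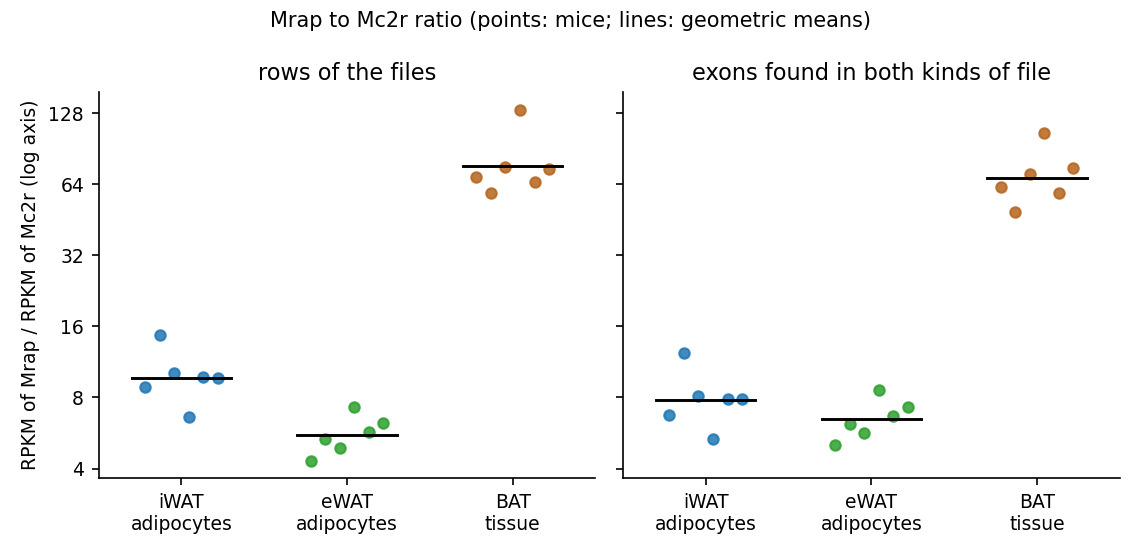
Ratio of Mrap RPKM to Mc2r RPKM (vertical axis, log scale) in each sample, from the rows of the files (left) and from the exons that both kinds of file hold (right). Points are mice and lines are geometric means of 6 samples; BAT lies between 58.5 and 132.4 per row, above all white adipocyte samples, and iWAT and eWAT overlap on the right.

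Within a depot the 2 genes were not tied in a way that 6 samples could show. Pearson's r of log2(RPKM + 0.1) was -0.84 in iWAT (p = 0.0667 over all 720 pairings, an exact permutation test; 0.272 after adjustment over 6 values), while Spearman's rho came to -0.49 (exact permutation p of 0.356, or 0.419 adjusted). In eWAT r was 0.58 (exact permutation p of 0.235, or 0.352 adjusted), with a rho of 0.43 (exact permutation p of 0.419, or 0.419 adjusted). In BAT r was 0.69 (exact permutation p of 0.119, or 0.272 adjusted), with a rho of 0.71 (exact permutation p of 0.136, or 0.272 adjusted). When the 2 samples with the most extreme Mc2r level were dropped, r became 0.60 in iWAT and -0.89 in eWAT, so the direction in both depots rested on those samples, and it was 0.86 in BAT. In iWAT mouse 13 was highest in Mc2r and lowest in Mrap, and mouse 11 was lowest in Mc2r and highest in Mrap. In eWAT mouse 15 had the lowest value of both genes, beside the lowest adipocyte marker sum (9091 RPKM) and the highest macrophage marker sum (1981 RPKM) of its depot, whose part in these values was not tested.

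**Figure D4:**
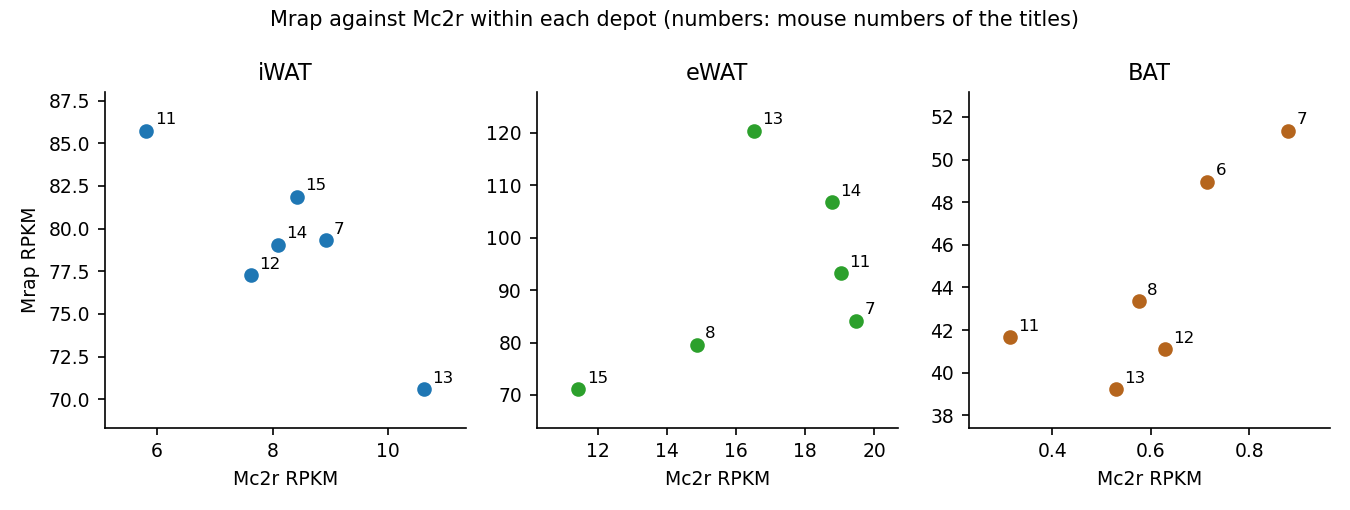
RPKM of Mrap (vertical axes) against RPKM of Mc2r (horizontal axes) in the 6 samples of each depot, labelled with the mouse numbers of the sample titles; axes differ between panels and do not start at 0. In iWAT mice 11 and 13 lie at opposite corners, in eWAT mouse 15 lies lowest on both axes, and in BAT mouse 7 lies highest on both.

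Other genes followed Mc2r across samples more closely than its accessory gene did. Over the 12 iWAT and BAT samples, among 14107 genes that averaged 1 RPKM or more in a depot, the highest Pearson r of log2(RPKM + 0.1) with Mc2r was that of Fbxl4 (0.995), followed by Ano10, Sucnr1, Gm12824 and B3galtl. Mrap stood at r = 0.96 and rank 1115. Sucnr1, the receptor for succinate, had a mean RPKM of 37.0 in iWAT and 2.23 in BAT. These 12 samples form 2 groups, so r mostly reflects the difference between depots. After centring all 18 samples on their depot means, 1110006O24Rik came first (r = 0.91), followed by Adk, Trim68, LOC100505274 and Fbxl4, and Mrap stood at r = 0.36 and rank 2152 of 13874.

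The remaining 5 genes were near zero. Mc5r, on the plus strand at chr18:68497250-68499377 with 2 exons, was read in every sample. It had 8 to 19 reads in iWAT (median 12), 2 to 8 in eWAT (median 5) and 7 to 25 in BAT (median 15.5). The mean RPKM came to 0.389 ± 0.122 (SD, n = 6) for iWAT, to 0.156 ± 0.0697 (SD, n = 6) for eWAT and to 0.416 ± 0.192 (SD, n = 6) for BAT. All 3 depots overlapped in RPKM, although no iWAT sample had fewer reads than the highest eWAT samples.

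The log2 fold change of Mc5r was -0.38 (SE 0.34, adjusted p = 0.339, edgeR's quasi-likelihood test) between iWAT and BAT. It was -2.14 (SE 0.38) for eWAT against BAT and 1.74 (SE 0.38) for iWAT against eWAT with the row length in the fit, and -1.78 and 1.35 without it. Most reads of Mc5r fell on its last exon, which codes for the receptor. At most 4 reads a sample fell elsewhere, the 4 being of the 8 reads in eWAT mouse 11.

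Pomc, on the plus strand at chr12:3954951-3960642, had a few reads in every sample and most in eWAT. It had 6 to 16 reads in iWAT (median 9), 13 to 29 in eWAT (median 18.5) and 2 to 12 in BAT (median 6.5). The mean RPKM came to 0.332 ± 0.0845 (SD, n = 6) for iWAT, to 0.659 ± 0.230 (SD, n = 6) for eWAT and to 0.196 ± 0.0868 (SD, n = 6) for BAT. The eWAT samples lay above all BAT samples and overlapped with iWAT. The log2 fold change was 1.01 (SE 0.31) for eWAT against BAT and -0.53 (SE 0.30) for iWAT against eWAT, given as values only.

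The place of the Pomc reads was the same in every sample. All of them fell on the final exon of the gene, which holds the sequence of ACTH and of the melanocyte-stimulating hormones, and 0 fell on the earlier exons, in 18 of 18 samples. The final exon makes up 726 of the 1007 bp of the eWAT row and 750 of the 1142 bp of the merged row. A sample with as few as 2 reads could miss the earlier exons, but eWAT samples with 13 to 29 reads had none there either. Why the earlier exons held no reads was not tested. Markers of pituitary cells, where Pomc is known to be strong, summed to at most 0.0505 RPKM in any sample, with Gh, Prl and Tbx19 at 0 reads.

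Mc1r, a single exon of 3663 bp on the plus strand at chr8:125930982-125934644, had 13 reads in all of iWAT, 8 in all of eWAT and 4 in all of BAT. The 8 reads in iWAT mouse 11 (0.0853 RPKM) stood apart from 0 to 2 reads in the other iWAT samples. The melanocyte markers Tyr, Dct, Tyrp1, Mlana and Pmel summed to 0.296 to 0.454 RPKM in iWAT, 0.768 to 1.23 in eWAT and 0.0737 to 0.233 in BAT, with Tyr at 0 in all samples and Dct at 35 to 60 reads in each eWAT sample. In 7 of the 18 samples Mc1r had no read. With 3 reads as the floor, a level of up to 0.0237 to 0.0357 RPKM would go unseen in a sample.

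Mc4r and Mrap2 were hardly read. Mc4r, a single exon of 2765 bp on the minus strand at chr18:67017362-67020126, had 1 read, in eWAT mouse 8. Mrap2 had 3 reads, in eWAT mouse 11 and BAT mice 8 and 13, and none in iWAT. A count of 0 allows up to 0.0314 to 0.0473 RPKM of Mc4r and up to 0.0385 to 0.0584 RPKM of Mrap2 in a sample (3 reads). The lowest RPKM of Mrap in any sample was 39.2. These floors cover counting error only, and reads were not collapsed by molecular identifiers. When the filter was dropped, edgeR's quasi-likelihood test gave Mc1r, Mc4r and Mrap2 adjusted p-values of 0.182 to 0.827.

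**Figure D5:**
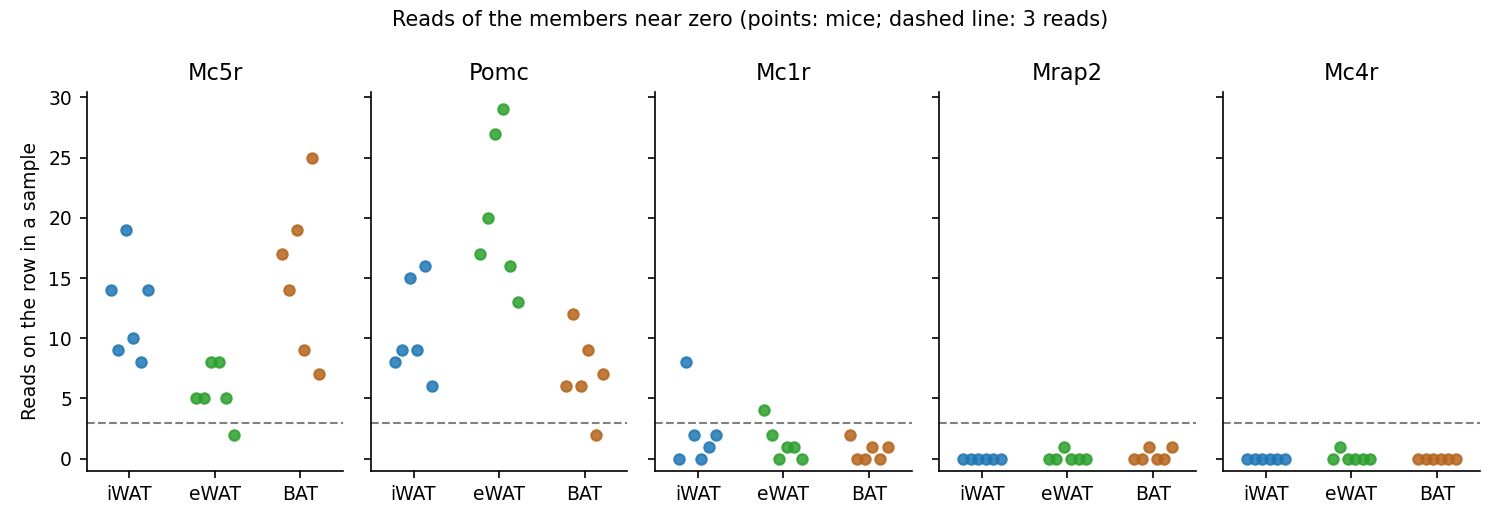
Reads on the row in each sample (vertical axis) of Mc5r, Pomc, Mc1r, Mrap2 and Mc4r in iWAT, eWAT and BAT; points are mice and the dashed line marks 3 reads. Pomc reaches 29 reads in eWAT and Mc5r 25 in BAT, whereas Mrap2 and Mc4r never exceed 1 read.

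Per kilobase, the order of the 7 genes within a depot began with Mrap, followed by Mc2r, in every depot. In BAT the gap between Mc2r (0.607 ± 0.189, SD, n = 6) and Mc5r (0.416 ± 0.192, SD, n = 6) was about the size of their spread. Mc5r and Pomc did not differ beyond their spread in iWAT. Mc1r, Mrap2 and Mc4r came last and were within the floor of 3 reads in all but 2 samples, iWAT mouse 11 and eWAT mouse 7, which had 8 and 4 reads of Mc1r.

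Markers of the adrenal cortex, the other main site of Mc2r and Mrap, were low. Star, Cyp11a1, Cyp11b1, Cyp21a1 and Nr5a1 together reached 0.356 to 0.808 RPKM over the 18 samples, and Cyp11b1 had 0 reads in all of them. Star held most of this sum, with 28 to 68 reads in iWAT, 32 to 82 in eWAT and 49 to 68 in BAT. In BAT the sum (0.356 to 0.508 RPKM) lay in the range of Mc2r itself (0.315 to 0.878). The neuron markers Snap25, Syt1, Rbfox3, Stmn2 and Sim1 summed to at most 0.811 RPKM. Mc2r has a row annotated across it on the other strand (LOC433197, 19 reads over the iWAT and BAT samples), and Mrap2 has one as well (AK034278, 10 reads). The library kit does not mark the strand, so reads of such pairs cannot be told apart where exons overlap. Mc2r had 4156 reads in iWAT and 359 in BAT, whereas Mrap2 had 0 and 2, fewer than the row on its other strand.

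Genes around the receptor were also read from lists. Of all rows tested, 34.0% were higher and 33.6% lower in iWAT against BAT. The shares were 39.9% and 34.0% in eWAT against BAT, and 24.2% and 28.3% in iWAT against eWAT. Without the row length they were 35.6% and 34.7%, and 13.4% and 12.3%. The lists hold few genes, so counts near these shares say little about a list. Among other melanocortin genes, Mc3r had 0 reads in all samples and Agrp, an antagonist of Mc4r, had 0 to 5. Of this list, Atrn, Atrnl1 and Mgrn1 were tested, and in iWAT against BAT 2 were higher and 1 lower (median log2 fold change 0.47, against 0.01 over all rows tested), with Atrnl1 at a log2 fold change of 1.63 (SE 0.09) and Mgrn1 at -0.37 (SE 0.07). The counts were the same in eWAT against BAT (median 0.98, against 0.08), with Atrnl1 at 1.06 (SE 0.11) and Mgrn1 at -0.22 (SE 0.07). Without the row length the counts stayed and the median there fell to 0.32, against 0.04. Between iWAT and eWAT, Atrnl1 was higher (0.54, SE 0.11) and Atrn lower (-0.54, SE 0.12), with a median of -0.18 against 0.04. Without the row length neither was called there, and Mgrn1, not called before, was the 1 lower call (-0.23, SE 0.07).

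Of the enzymes that process pro-opiomelanocortin, the convertase gene Pcsk1 had 0 reads in iWAT, 0 to 1 in eWAT and 0 to 5 in BAT, and Pcsk2 had 0 to 8 in any sample. In iWAT against BAT, 2 of 4 tested genes of this list were higher and 1 lower (median 1.21, against 0.01), and in eWAT against BAT 3 were higher and 0 lower (median 2.67, against 0.08). Pam, which amidates peptides, was higher in iWAT by 1.96 (SE 0.19) and in eWAT by 3.47 (SE 0.19) on the log2 scale. Without the row length the eWAT value of Pam was 2.59 (SE 0.19). Cpe, a carboxypeptidase, was lower in iWAT than in BAT (adjusted p = 0.00804, edgeR's quasi-likelihood test). All 4 tested genes were lower in iWAT than in eWAT (median -1.17, against 0.04), also without the row length. The macrophage marker sum was 136.6 to 1981 RPKM in eWAT, above every iWAT sample (26.7 to 132.3) and BAT sample (20.0 to 47.4). The sums of iWAT and BAT overlapped. The part of these cells in the list was not tested. Ctsl, a lysosomal protease, ran from 9470 to 29770 reads among the eWAT samples.

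Downstream of the receptor, 18 of 19 listed genes of the cAMP pathway were tested. Over all rows, 34.0% were higher and 33.6% lower in iWAT against BAT, and 39.9% and 34.0% in eWAT against BAT. The counts of this list are to be read beside these shares. In iWAT against BAT, 5 were higher and 8 lower (median -0.34, against 0.01), and in eWAT against BAT 8 were higher and 6 lower (median 0.17, against 0.08), but 5 and 7 without the row length (median -0.23, against 0.04). Adcy5, an adenylyl cyclase, had the largest rise of the list in both, by 5.14 (SE 0.25) and 4.60 (SE 0.25) on the log2 scale, from a mean RPKM of 0.646 ± 0.223 (SD, n = 6) in BAT up to 27.7 ± 6.62 (SD, n = 6) for iWAT and to 26.2 ± 6.07 (SD, n = 6) for eWAT. Adcy3, another adenylyl cyclase, stood at -1.66 (SE 0.15) in iWAT and at -2.72 (SE 0.20) in eWAT. Between iWAT and eWAT, 6 were higher and 8 lower (median -0.29, against 0.04), but 4 and 1 without the row length, so the split of this list turned with the length in both comparisons with eWAT.

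Of the 9 listed lipolysis genes, 7 were higher and 1 lower in iWAT than in BAT (median 0.62, against 0.01), beside 34.0% and 33.6% of all rows. Cidec, a lipid droplet protein, stood at 1.99 (SE 0.17) and the glycerol channel gene Aqp7 at -0.49 (SE 0.10). In eWAT against BAT, 3 of the 9 were higher and 3 lower (median 0.06, against 0.08), beside 39.9% and 34.0% of all rows. In iWAT against eWAT 5 were higher and 0 lower (median 0.52, against 0.04), or 3 and 0 without the row length. Calcrl and its accessory genes Ramp1, Ramp2 and Ramp3, another receptor system with helper proteins, had 2 members tested in iWAT against BAT. Both were lower (median -0.76, against 0.01), Calcrl at -0.50 (SE 0.20) and Ramp2 at -1.02 (SE 0.30). In eWAT against BAT 1 of 4 was higher and 1 lower (median 0.02, against 0.08), or 0 and 1 without the row length. In iWAT against eWAT Calcrl stood at -1.52 (SE 0.31) and Ramp2, not called, at 0.71 (SE 0.32). Ramp1 and Ramp3 had at most 8 and 5 reads in iWAT and passed the filter only through eWAT and BAT samples. The 3 lower of 4 there (median -2.11, against 0.04) are therefore given as values only. The endothelium markers Pecam1, Cdh5, Kdr, Tek and Vwf summed to 23.0 to 132.7 RPKM in iWAT (median 41.4), 76.0 to 196.5 in eWAT (median 89.6) and 42.0 to 80.2 in BAT (median 56.0). The median of these markers was thus lower in iWAT than in eWAT, with overlapping samples. Calcrl was lower there too, whereas Ramp2 was not. In eWAT against BAT the median of the markers was higher, again with overlapping samples, whereas Ramp2 stood at -1.75 (SE 0.33) on the log2 scale. The part of endothelial cells in this list was not tested.

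Among the transcription factors known to act on Mrap in adipocytes (Pparg, Rxra, Cebpa and Cebpb), 3 were higher and 1 lower in iWAT than in BAT (median 0.41, against 0.01), where Rxra rose by 1.48 (SE 0.08) and Cebpb stood at -0.79 (SE 0.16). In eWAT against BAT, 1 was higher and 3 lower (median -0.35, against 0.08), or 1 and 1 without the row length (median -0.04, against 0.04), and in iWAT against eWAT 3 were higher and 0 lower (median 0.63, against 0.04), or 1 and 0 without the row length. The 250 bases before the start of the Mrap row (chr16:90738319-90738568, mm9) were searched on both strands for AGGTCA, TGACGTCA and TTGCGCAA and held none of them, whereas 4607, 508 and 54 of 32851 mouse promoters of RefSeq (GRCm38.p6) hold them in a window of that length. In the 300-base promoters of RefSeq, which cover 3 of the 7 genes, AGGTCA occurred 1 time each in Mrap2 and Pomc and not in Mc1r, and the other motifs in none of them.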

How the data were processed

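RNA-seq was measured in 6 iWAT adipocyte, 6 eWAT adipocyte and 6 BAT tissue samples. Per the study's methods, library preparation used the NEBNext Ultra RNA kit, and reads from an Illumina HiSeq instrument were processed with the Genomatix Genome Analyzer on mm9. The submitters' processing notes also name cutadapt (version 1.16) and HISAT2 (version 2.1.0). The annotation release and the strand setting are not given in the sources used here. The authors deposited, unscaled, the read count of each row. The RPKM they deposited beside it rests on 1 total of reads a sample (22929576 to 34512470). The exon columns deposited by the authors hold a normalized signal of the lowest and the highest exon.

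The 7 genes and the lists around them were chosen with earlier results of these data known. Groups came from the depot in the labels, and the number in a title was read as the mouse. Nothing states that equal numbers are the same animal, and the correlation of same-numbered deviations ran from -0.31 to 0.11, so no block was used. Where samples did not come from separate animals, p-values would measure technical spread.

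For iWAT against BAT, read counts of 12 samples and all merged rows were tested with edgeR (version 4.0.16, R version 4.3.3), with TMM, glmQLFit and glmQLFTest, at least 10 reads in at least 6 samples and a Benjamini-Hochberg adjusted p under 0.05. For the comparisons with eWAT all 18 samples were fitted together, with 1 row per symbol and the row length as an offset. SE values come from the F statistic. The code was tested on simulated data. Exon reads were solved from the exon signal, the row's reads and exon lengths of the mm9 annotation. The coding exon of Mc2r was taken to be read more densely than the overlapping single-exon transcript, and possible answers differed by at most 4.95%. Ratios and correlations were tested with two-sided exact permutation tests (scipy 1.17.1, numpy 2.4.6). Genes most like Mc2r were the 5 with the highest r in each order, and from each list the 2 with the largest called change in each direction could be named. Alternatives were limma 3.58.1 on log2(RPKM + 0.1) and log2(RPKM + 1), DESeq2 1.42.0, other filters, library sizes and eWAT rows, and fits without single samples.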

Additional observations from a re-analysis of the deposited data

Results flagged for a closer look

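Of 21 groups of 6 samples (7 genes or the ratio in 3 depots, where values were not all 0), 4 held a sample far from the others by Dixon's criterion. Chance meets it in about 1 in 20 groups of normally spread values, a rate that does not hold for counts near 0. Mrap2 in eWAT mouse 11 was at 0.0179 RPKM, and Mc4r in eWAT mouse 8 was at 0.0106 RPKM. Each of these values is 1 read among samples without any, which meets the criterion by construction. Mc1r in iWAT mouse 11 was at 0.0853 RPKM, or 8 reads, with 0 to 2 reads in the other 5 samples. The ratio of Mrap to Mc2r in BAT mouse 11 was 132.4, against 58.5 to 75.4 in the other BAT samples. In that sample Mc2r was at 30 reads, the lowest of all samples, and Mrap at 1862 reads. Without it the ratio in iWAT was 7.01-fold and in eWAT 12.3-fold below BAT.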

How the results depend on the processing

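Over 22 results and 380 alternatives, 349 kept their direction and their side of the threshold. Mc2r and Mrap in iWAT against BAT kept their calls in all 21 alternatives each (log2 fold changes 2.52 to 3.61 and 0.43 to 0.84). Mrap in eWAT against BAT lost its call with the replicate block (0.35), in DESeq2 (0.27) and under the stricter filter (0.23), and ranged from 0.25 to 0.40 without single samples. With the longest eWAT transcript, the single-exon AK078581, Mc2r moved to 0.029 in eWAT against BAT and to 3.45 in iWAT against eWAT, by construction of that row. Mc2r in iWAT against eWAT was -0.0096 without the row length and -0.088 on the exon. Mrap there was -0.21 in limma with either pseudocount and -0.11 with the mean over all transcripts. Pomc there, given as values only since it was tested through its high eWAT samples, was -0.78 (pseudocount 0.1), -0.31 (pseudocount 1) and -0.78 (mean over transcripts) in limma. The ratio of Mrap to Mc2r there was 0.24 on reads and 0.27 on exons.

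Whether same-numbered samples came from 1 animal is not stated, and correlations that ran from -0.31 to 0.11 cannot settle it. With the replicate block Mc5r in iWAT against BAT was 0.0032, and the ratio differences were -3.01, -3.92 and 0.78, each with an exact permutation p = 0.125, the smallest p possible with 4 shared numbers in the comparisons with BAT (0.0625 with 5 between iWAT and eWAT), so these values do not show a lost call against BAT. The genes called between iWAT and eWAT fell from 9644 of 18383 to 4715 without the row length. They came to 4716 where exon reads of Mc2r and Mrap alone were also put in. On rows shared by both kinds of file, 735 of 5733 tested were called there. In eWAT against BAT, 3888 of 5733 shared rows were called (13586 of 18383 in the main result). The share called thus fell more between iWAT and eWAT than in eWAT against BAT. On log2(RPKM + 0.1) the calls split into 9086 higher and 4856 lower in iWAT against BAT (6711 and 6625 in edgeR), 11509 and 3267 in eWAT against BAT (7332 and 6254), and 984 and 8663 in iWAT against eWAT (4446 and 5198). Correlations without the 2 farthest samples were 0.60 in iWAT and -0.89 in eWAT. With a pseudocount of 1, Mrap ranked 1735 instead of 1115 among genes like Mc2r. Leaving out eWAT mice 14 and 15 gave no value for iWAT against BAT, which holds no eWAT sample. Where not shown by the construction of an alternative, the cause was not tested. Depth limits Mrap2, Mc4r and Mc1r, whose 0 to 8 reads a sample cannot show a difference.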
